A study of Mus musculus with 15 samples.

Results

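The 10 genes described here are the class II genes of the mouse major histocompatibility complex and their transactivator: *Ciita*, the invariant chain gene *Cd74*, the chain genes *H2-Aa*, *H2-Ab1* and *H2-Eb1*, the peptide-loading genes *H2-DMa*, *H2-DMb1* and *H2-DMb2*, and the genes of their inhibitor, *H2-Oa* and *H2-Ob*. They were chosen by name and not by a cut-off on their values, though with earlier results of these data known. The choice was made from the 51763 genes counted in RNA sequencing of bone marrow-derived macrophages (BMDMs). All 10 passed the filter on low counts that left 16919 genes for testing. The BMDMs, from wild-type young adult female C57BL/6NTac mice and matured in M-CSF, came from a pool of animals and were kept for 24 h with PBS, with 5 µg/mL of fully reduced HMGB1 (frHMGB1) or disulfide HMGB1 (dsHMGB1), with LPS, or with LPS and 20 ng/mL IFNγ (LPS/IFNγ), and 3 libraries were made of each of the 5 conditions. HMGB1 is a nuclear protein that acts as a danger signal outside the cell, where its inflammatory activity depends on the redox state of its cysteines. Because the macrophages were pooled before seeding, the 3 libraries of a condition are technical replicates, and each SD, SE and adjusted p below covers the spread between cultures and libraries, not between mice. LPS alone was used at 1 µg/mL. For LPS/IFNγ the sample labels give 1 µg/mL of LPS in one field and 100 ng/mL in another, so what the added IFNγ did and what a lower LPS dose did cannot be told apart.

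MHC class II molecules present peptides from endocytosed proteins to CD4+ T cells. Their α and β chains assemble in the endoplasmic reticulum on the invariant chain, which blocks the groove and directs the complex to endosomes. There proteases trim the invariant chain to a small remnant, CLIP, which H2-DM exchanges for antigenic peptide, and H2-O holds H2-DM back. CIITA does not bind DNA itself but docks on the factors RFX, CREB and NF-Y, which sit on the X and Y boxes of the class II promoters, and IFNγ is its best known inducer in macrophages, through JAK1, JAK2 and IRF1. The gene-level counts used here do not separate the several promoters of *Ciita*.

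RefSeq promoter windows (GRCm38.p6, 250 bases before and 50 after a start) were at hand for 7 of the 10 genes and not for *Ciita*, *Cd74* or *H2-Ab1*. They are shown because a shared X-Y layout is what would bring these genes under one transactivator. The X box core searched here was AG, any pair of bases, AC, any pair of bases and ATG, and the Y box core was GATTGG, which holds the reverse complement of the CCAAT motif. Both were searched on either strand and no match of one overlaps a match of the other in the stretches shown. The printed stretches have in capitals the match to each, 5′ to 3′ on the gene's strand.
H2-DMb1: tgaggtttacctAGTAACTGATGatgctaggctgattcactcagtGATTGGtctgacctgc
H2-Eb1: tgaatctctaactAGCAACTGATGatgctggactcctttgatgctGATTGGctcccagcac
H2-Ob: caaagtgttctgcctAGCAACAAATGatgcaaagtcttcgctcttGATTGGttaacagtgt
H2-Aa: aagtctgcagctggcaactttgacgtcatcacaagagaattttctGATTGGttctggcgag
H2-DMb2: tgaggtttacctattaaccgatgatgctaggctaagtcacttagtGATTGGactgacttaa
The H2-DMb1 stretch is chr17:34153084-34153144, with 22 bases between the X and Y matches. The H2-Eb1 stretch is chr17:34305762-34305822 with 21 bases between, and that of H2-Ob is chr17:34238802-34238862 with 19. The stretches of H2-Aa (chr17:34287857-34287917, minus strand) and H2-DMb2 (chr17:34145113-34145173) have a Y match and no match to these X letters. Among 32851 RefSeq windows of the same length, 3.09% held the X letters, 16.1% the Y letters, and 9 windows (0.0274%) held X and then Y on the gene's strand with 10 to 30 bases between them, 3 of these 9 being the windows of *H2-DMb1*, *H2-Eb1* and *H2-Ob*. The *H2-Oa* window also has a match to each, but its X match begins 141 bases and its Y match 44 bases before the start, outside that spacing, and of the *H2-DMa* windows one has a Y match 199 bases before its start and the other neither. Among the 9 is also the window of *H2-Eb2*, a class II gene outside the 10, with 21 bases between. *H2-Eb2* had 39 counts in all libraries and did not pass the filter. These are matches of letters, and no binding was measured.

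On GRCm38, *Ciita* (ENSMUSG00000022504) lies at chr16:10480059-10528418 and *Cd74* (ENSMUSG00000024610) at chr18:60803848-60812652. The other 8 lie on chromosome 17, in the order *H2-Oa* (ENSMUSG00000024334, chr17:34092340-34095234), *H2-DMa* (ENSMUSG00000037649, chr17:34119541-34139101), *H2-DMb2* (ENSMUSG00000037548, chr17:34143307-34151555), *H2-DMb1* (ENSMUSG00000079547, chr17:34153072-34160230), *H2-Ob* (ENSMUSG00000041538, chr17:34238903-34254414), *H2-Ab1* (ENSMUSG00000073421, chr17:34257689-34269419), *H2-Aa* (ENSMUSG00000036594, chr17:34282744-34287823) and *H2-Eb1* (ENSMUSG00000060586, chr17:34305867-34316674). Of their transcripts' stretches of 50 bases, *H2-DMb1* shares 27.2% with *H2-DMb2* and *H2-DMb2* 24.8% with other genes, so that how the authors' counting divided reads between them is uncertain, while the other 8 share 0% with any other gene. *H2-DMa* overlaps *Brd2* on the opposite strand, which had 567690 counts in all against 52159 of *H2-DMa*, and *Ciita* overlaps *Dexi* in the same way (15795 against 89293). The libraries were stranded, but the strand setting of the counting is not given in the sources used here.

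The 15 libraries held 40934540 to 80925478 counts each, and the 10 genes together took 0.482% to 0.786% of the counts in PBS. The cells carried all 7 macrophage markers listed (*Adgre1*, *Csf1r*, *Cd68*, *Itgam*, *Mertk*, *Fcgr1* and *Lyz2*), which summed to between 13100 and 27000 CPM (counts scaled to library size). Of 8 B cell markers 3 passed the filter and their sum lay at 15 to 40.7 CPM, nearly all of it *Cd22*, with *Ms4a1* at 9 and *Blk* at 0 counts over all 15 libraries. Of 8 dendritic cell markers 4 passed, summing to 325 to 548 CPM, nearly all *Itgax*, and *Flt3* had 6 counts in all. Between PBS and LPS/IFNγ the mean of *Zbtb46* went from 0.331 to 7.03 CPM and that of *Xcr1* from 1.68 to 6.57 CPM, while that of *Clec9a* went from 2.6 to 0.918 CPM and that of *Itgax* from 457 to 340 CPM. Of 6 T and NK cell markers 2 passed, summing to 13.6 to 35.8 CPM, nearly all *Cd4*, and *Cd3e*, *Cd3d*, *Cd8a* and *Ncr1* were at 0.

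PBS replicate 3 stood apart from every other library. On log2(CPM + 1) it correlated with the other PBS libraries at 0.944 and 0.938, against 0.995 to 0.999 for all other pairs of replicates, and processed pseudogenes took 1.49% of its counts against 0.481% to 0.833% elsewhere. Its counts also leaned towards short transcripts: among protein-coding genes its median log2 ratio to the other PBS libraries was 0.937 for mRNAs under 2 kb, of which there were 2454, and -0.982 for the 2200 over 5 kb. The class II genes moved with this. Relative to the mean of PBS replicates 1 and 2, PBS replicate 3 held 0.431 times the level of *Ciita*, whose longest coding transcript has 6007 bases, but 2.19 times the level of *Cd74* (1410 bases), 2.18 times that of *H2-Ab1* (1212 bases) and 2.06 times that of *H2-Eb1* (1669 bases). *H2-Aa*, at 1128 bases, was at 1.06 times and did not follow. For this reason the calls in each comparison are also given without this library and with the length trend of each library taken out as an offset in edgeR.

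**Figure D1:**
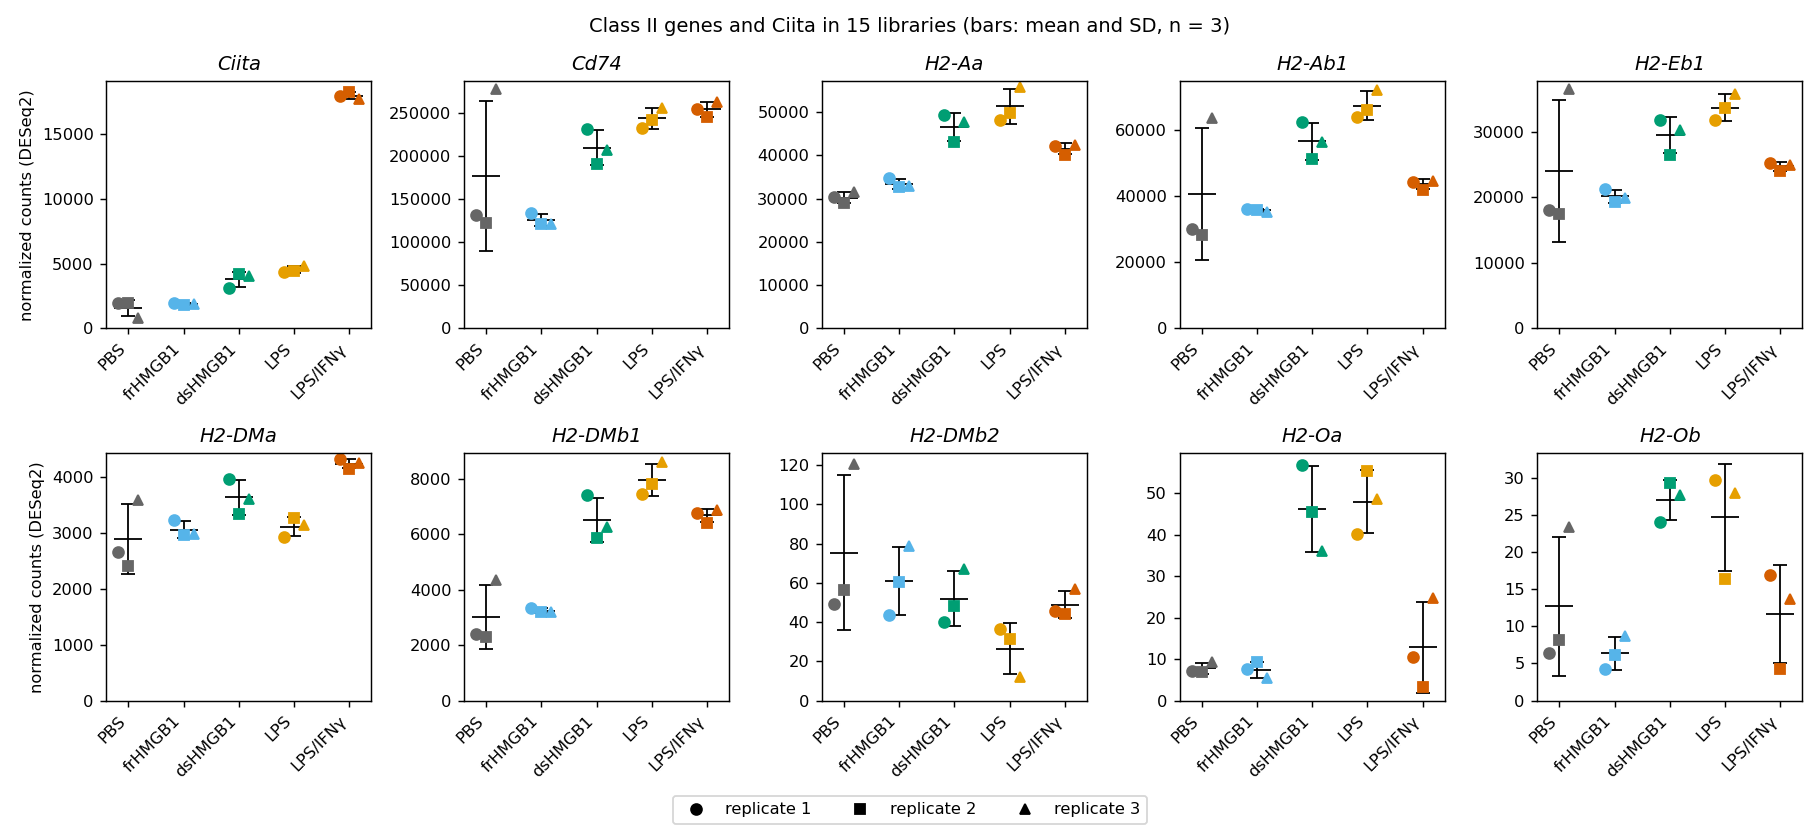
Normalized counts (DESeq2, linear axes from 0) of the 10 genes in the 15 libraries, by condition; symbols are replicates 1 to 3, and bars give the mean and SD of 3 libraries. *Ciita* is highest in LPS/IFNγ, with no overlap, while *H2-Aa*, *H2-Ab1* and *H2-Eb1* have their highest means in LPS, and PBS replicate 3 lies far above the other PBS libraries for *Cd74*, *H2-Ab1* and *H2-Eb1* and below them for *Ciita*.

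LPS/IFNγ, in which both agents were given at once, was compared with LPS alone. *Ciita* was 3.94-fold higher in LPS/IFNγ, while none of the 3 chain genes was higher: *H2-Aa* fell slightly, and *H2-Ab1* and *H2-Eb1* had lower means that did not pass the test with all libraries. *H2-DMa* rose and *H2-Oa* fell. In all, 4 of the 10 genes were called, 2 higher and 2 lower, where 25.7% of the genes tested were called, 16.3% higher and 9.36% lower. The median log2 fold change of the 10 was -0.278, beside 0.00247 over all genes tested. In bulk RNA a change in the share of a kind of cell and a change in the RNA per cell cannot be told apart. Of the markers of other cells, 2 of the 3 B cell markers tested (*Cd22* and *Cd79b*), 2 of the 4 dendritic cell markers (*Zbtb46* and *Clec9a*) and 0 of the 2 T and NK cell markers were called higher in LPS/IFNγ than in LPS, and 0 lower, with medians of 0.588, 0.824 and 0.285 on the log2 scale. The part of such cells in the results was not tested.

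*Ciita* counted 4359, 4443 and 4821 normalized reads in LPS and 17872, 18186 and 17663 in LPS/IFNγ. The groups were wide apart, and no LPS/IFNγ library came near any library of another condition. The log2 fold change was 1.98 (SE 0.25; edgeR adjusted p = 6.68e-05), and in edgeR it was 1.94 to 2.01 when PBS replicate 3 or any one library of these conditions was left out. With the length offset it was 1.85 (edgeR adjusted p = 2.1e-09).

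*Cd74*, which encodes the invariant chain and is in many antigen-presenting cells among the most abundant class II transcripts, did not follow *Ciita*. It counted 233389, 242571 and 256620 in LPS and 255540, 245426 and 263229 in LPS/IFNγ. These ranges overlap, and the log2 fold change of 0.06 (95% interval -0.43 to 0.55, edgeR adjusted p = 0.798) was not called. With the length offset it was 0.28 and called (edgeR adjusted p = 0.00787), and without PBS replicate 3 it was 0.05 (edgeR adjusted p = 0.559).

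The chain genes had lower counts in LPS/IFNγ than in LPS. *H2-Aa*, the α chain of the I-A molecule, counted 48215, 49764 and 55803 in LPS and 42130, 40139 and 42370 in LPS/IFNγ. *H2-Ab1*, its β chain, counted 63801, 66112 and 72216 in LPS and 44210, 41874 and 44621 in LPS/IFNγ. *H2-Eb1*, the β chain of I-E, counted 31738, 33535 and 35735 in LPS and 25201, 23998 and 24895 in LPS/IFNγ. For each of the 3 genes every LPS/IFNγ library was below every LPS library. The log2 fold change was -0.30 for *H2-Aa* (SE 0.08; edgeR adjusted p = 0.0273), -0.63 for *H2-Ab1* (SE 0.25; adjusted p = 0.0568) and -0.45 for *H2-Eb1* (SE 0.24; adjusted p = 0.155). Without PBS replicate 3, whose spread enters the joint fit, edgeR called all 3 lower, at adjusted p = 0.000234, 1.67e-07 and 8.35e-06.

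The length trend bears on how large these falls were. Between LPS/IFNγ and LPS the median log2 fold change was -0.241 for mRNAs under 2 kb and 0.126 for those over 5 kb, and the chain genes belong to the first class. With the length offset *H2-Aa* was at -0.04 (edgeR adjusted p = 0.912) and no longer called, whereas *H2-Ab1* at -0.38 (adjusted p = 0.000115) and *H2-Eb1* at -0.26 (adjusted p = 0.0437) were called lower. The call of *H2-Aa* was also lost without LPS replicate 3 (-0.25, edgeR adjusted p = 0.0609) or LPS/IFNγ replicate 2 (-0.29, edgeR adjusted p = 0.0505). It was lost too with protein-coding genes only (-0.22, edgeR adjusted p = 0.0608). A rise of the chain genes with IFNγ was not seen under any of these settings.

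**Figure D2:**
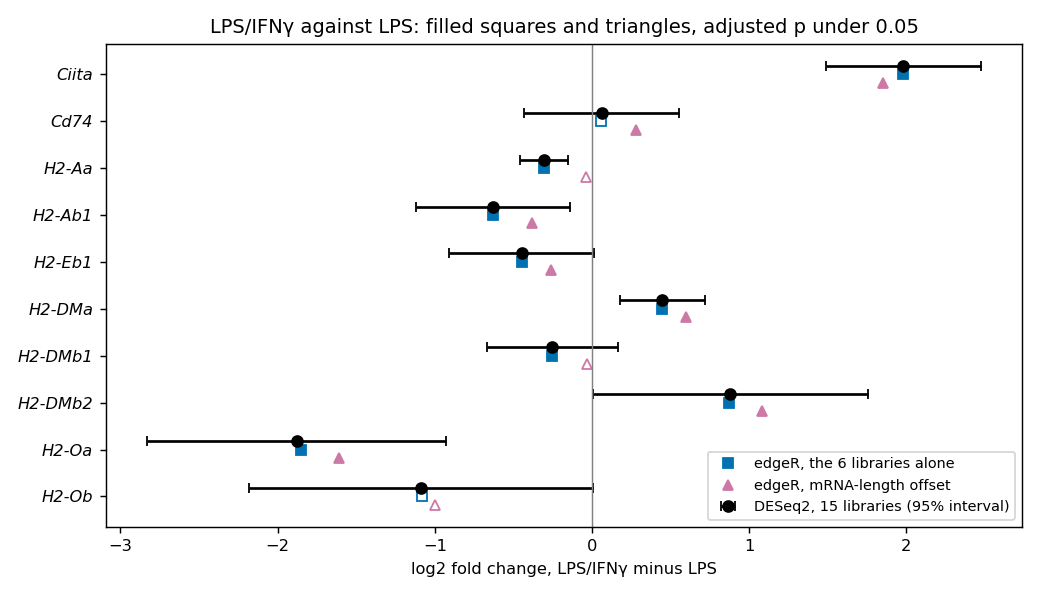
Log2 fold change of each gene, LPS/IFNγ minus LPS: black points are DESeq2 on 15 libraries with 95% intervals, blue squares edgeR on the 6 libraries alone and pink triangles edgeR with the mRNA-length offset, filled where the adjusted p was under 0.05. *Ciita* stands near 2 in each, the chain genes lie at or left of 0, and the length offset moves every gene but *Ciita* to the right.

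The peptide-loading genes did not move together. *H2-DMa*, the α chain of H2-DM, counted 2919, 3255 and 3138 in LPS and 4310, 4142 and 4249 in LPS/IFNγ, where every library was higher. The log2 fold change was 0.45 (SE 0.14; edgeR adjusted p = 0.00696). It was 0.60 with the length offset and 0.40 without LPS replicate 1, when the call was lost (edgeR adjusted p = 0.0545). *H2-DMb1*, the main β chain, counted 7477, 7830 and 8602 in LPS and 6760, 6428 and 6876 in LPS/IFNγ. Its ranges did not overlap, but the log2 fold change of -0.25 (95% interval -0.67 to 0.16, edgeR adjusted p = 0.425) was not called, and with the length offset it was -0.03. Without PBS replicate 3 it was called lower (-0.27, edgeR adjusted p = 0.0056). *H2-DMb2*, the second β chain gene, was scarce, at 36.2, 31.4 and 11.8 in LPS and 45.6, 44.2 and 56.7 in LPS/IFNγ. Its log2 fold change of 0.88 (95% interval 0.00363 to 1.76, edgeR adjusted p = 0.144) was not called, and with the length offset it was 1.08 and called (edgeR adjusted p = 0.038).

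The genes of the H2-O inhibitor were near the limit of detection in every condition. *H2-Oa* counted 40.1, 55.3 and 48.5 in LPS and 10.6, 3.16 and 24.7 in LPS/IFNγ, from raw counts of 31, 37 and 33 against 10, 3 and 27. It was lower in every LPS/IFNγ library, by a log2 fold change of -1.88 (SE 0.49; edgeR adjusted p = 0.0128), and the value ranged from -2.79 to -1.44 and stayed called when PBS replicate 3 or any one of these libraries was left out. *H2-Ob* counted 29.7, 16.4 and 27.9 in LPS and 17, 4.21 and 13.7 in LPS/IFNγ. These ranges overlap, and the log2 change of -1.09 (95% interval -2.18 to 0.00809, edgeR adjusted p = 0.18) was not called, nor was it without PBS replicate 3 (edgeR adjusted p = 0.0616).

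Over the 10 genes, 8 did not overlap between LPS and LPS/IFNγ, where 60.5% of all genes tested did not overlap, and 4 of the 8 were called. With the 6 libraries of these conditions fitted alone, 3 genes were called higher and 5 lower, where 61.1% of the genes tested were called. When PBS replicate 3 was left out it was 2 higher and 5 lower of 49.4% called among all genes, and with the length offset 4 higher and 3 lower, of 34.3%. *Ciita* and *H2-DMa* were called higher and *H2-Oa* lower in all 4 of these fits.

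The ratios within a library, which do not depend on the scaling between libraries, set *Ciita* apart from the genes it acts on. *Cd74*, *H2-Aa*, *H2-Ab1* and *H2-Eb1* together had 86.5, 88.2 and 87.2 reads for each *Ciita* read in LPS, and 20.5, 19.3 and 21.2 in LPS/IFNγ. In frHMGB1 the ratio was 114, 116 and 110, in dsHMGB1 120, 74.8 and 85.2, and in PBS 109, 99.6 and, in replicate 3, 487. LPS/IFNγ therefore had the lowest ratio of the 5 conditions, and dsHMGB1 overlapped LPS, frHMGB1 and PBS. *Ciita* is a long and the others are short transcripts, so the ratio follows the length trend of a library.

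*Cd74* and *H2-Ab1* are close in transcript length, and their ratio was steady within a condition. It was 4.4, 4.35 and 4.38 in PBS, PBS replicate 3 included, and 3.55 to 3.74 in the LPS and dsHMGB1 libraries, with frHMGB1 at 3.41 to 3.70. In LPS/IFNγ it was 5.78, 5.86 and 5.90, above every other library. No ratio was tested.

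*H2-Oa* and *H2-Ob* together counted 0.669%, 0.645% and 0.651% of *H2-DMa*, *H2-DMb1* and *H2-DMb2* in LPS. In dsHMGB1 the share was 0.709%, 0.807% and 0.643%, in PBS 0.266%, 0.319% and 0.406%, in frHMGB1 0.178%, 0.247% and 0.224% and in LPS/IFNγ 0.248%, 0.0694% and 0.343%. LPS and dsHMGB1 lay above all other libraries. The inhibitor genes thus amounted to under 1% of the H2-DM reads in each library, and the shares of PBS, frHMGB1 and LPS/IFNγ rest on few reads.

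**Figure D3:**
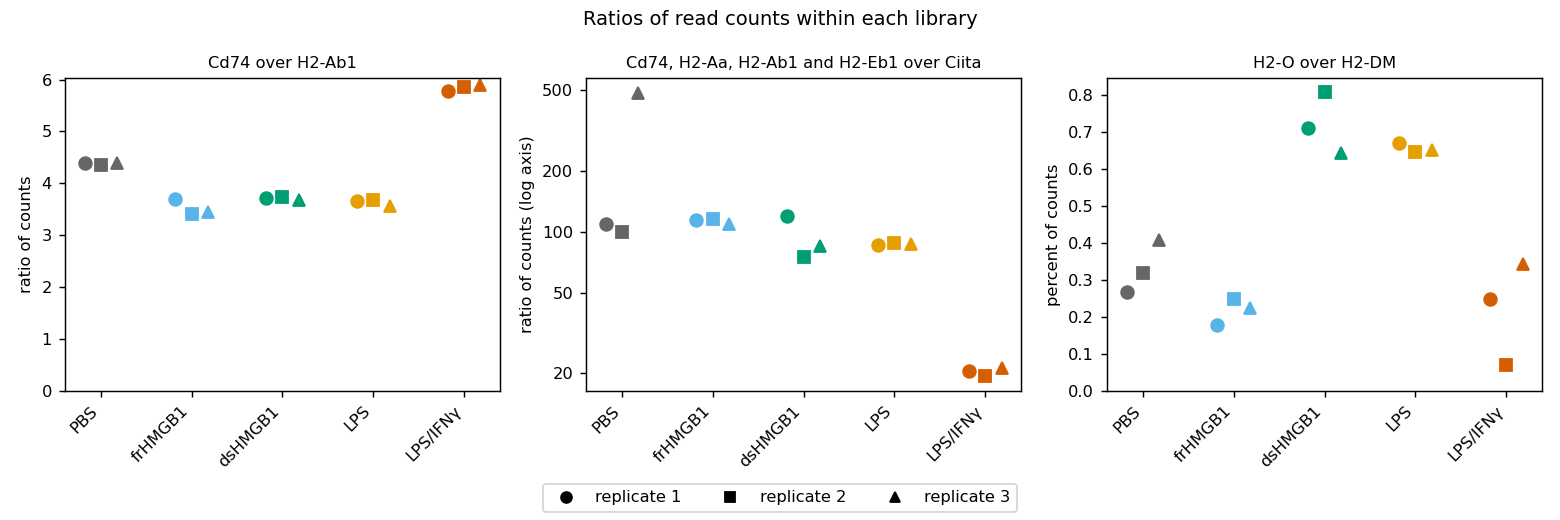
Ratios of normalized counts within each library by condition (symbols are replicates): *Cd74* over *H2-Ab1*, the sum of *Cd74*, *H2-Aa*, *H2-Ab1* and *H2-Eb1* over *Ciita* (log axis), and H2-O over H2-DM in percent. LPS/IFNγ has the highest *Cd74* to *H2-Ab1* ratio, 5.78 to 5.90, and the lowest ratio to *Ciita*, 19.3 to 21.2.

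Against PBS, which tells how far each stimulus alone moved the genes, LPS raised *Ciita*, 2 chain genes, *H2-DMb1* and *H2-Oa*. Of the 10 genes 5 were called higher and 1 lower in LPS, where 62.9% of all genes tested were called, 26.7% higher and 36.2% lower. The median of the 10 was 0.747 on the log2 scale, and that of all genes -0.209. *Ciita* was at 1929, 1979 and, in replicate 3, 842 in PBS, all below the LPS libraries (log2 fold change 1.52, SE 0.25; edgeR adjusted p = 0.000256). *H2-DMb1* was at 2393, 2290 and 4361 in PBS and rose by 1.40 (SE 0.21; edgeR adjusted p = 1.96e-05). *H2-Oa* rose 6.25-fold from 7.11, 6.94 and 9.37 (log2 fold change 2.64, SE 0.50; edgeR adjusted p = 0.000602), and it was the gene past a log2 fold change of 2, the cut-off the study used, above which lay 10.9% of all genes.

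*H2-Aa* stood at 30244, 29063 and 31406 in PBS and rose by 0.76 (SE 0.08; edgeR adjusted p = 5.81e-06). *H2-Ab1* counted 30022, 28175 and 63505 and rose by 0.73 (SE 0.25; edgeR adjusted p = 0.0122), a call that was lost without PBS replicate 1 (0.53, edgeR adjusted p = 0.0509). *H2-Eb1*, at 18011, 17423 and 36547 in PBS, had a log2 fold change of 0.49 (edgeR adjusted p = 0.0646). For *H2-Ab1* PBS replicate 3 lay just under the lowest LPS library and for *H2-Eb1* above all 3, whereas PBS replicates 1 and 2 were far below for both. *Cd74* was at 132090, 122503 and 278324, and its log2 fold change of 0.46 (edgeR adjusted p = 0.104) was not called. *H2-DMb2* fell by 1.49 on the log2 scale from 49.1, 56.1 and 121 (SE 0.44; edgeR adjusted p = 0.00658).

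Once PBS replicate 3 was left out, all 10 genes were called in LPS, 9 higher and *H2-DMb2* lower, of 71.2% called among all genes. In that edgeR fit *Cd74* rose by 0.88, *H2-Ab1* by 1.15, *H2-Eb1* by 0.87, *H2-DMa* by 0.23, *H2-Ob* by 1.68 and *Ciita* by 1.16. *Cd74*, *H2-Eb1*, *H2-DMa* and *H2-Ob* were thus called without this library and not with it, while the other 6 were called both ways. With the length offset 8 were called, of 67.5% among all genes: *H2-DMb2* lower and the others, without *H2-DMa* and *H2-Ob*, higher.

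In LPS/IFNγ 4 of the 10 were called higher than in PBS and 0 lower, of 60.3% called among all genes, 29% higher. *Ciita* rose 11.3-fold (log2 fold change 3.50, SE 0.25; edgeR adjusted p = 1.13e-07) and was the gene of the 10 past the cut-off of 2, with 12.1% of all genes above it. *H2-Aa* rose by 0.46 (SE 0.08; edgeR adjusted p = 0.000406), *H2-DMa* by 0.56 (SE 0.14; adjusted p = 0.00121) and *H2-DMb1* by 1.15 (SE 0.21; adjusted p = 8.72e-05). *Cd74* at 0.52 (edgeR adjusted p = 0.0516), *H2-Ab1* at 0.10 and *H2-Eb1* at 0.04 were not called. With that library left out these 3 were called too, at 0.93, 0.51 and 0.41, so that 7 were higher, of 67.7% called. The length offset gave 7 higher, of 64.7%, with *Cd74* at 0.90, *H2-Ab1* at 0.55 and *H2-Eb1* at 0.31. With all 15 libraries the 11.3-fold gain of *Ciita* stood beside gains of 1.03- to 1.43-fold for *Cd74* and the chain genes.

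dsHMGB1, which signals through TLR4 as LPS does, raised 5 of the 10 genes above PBS and lowered 0, where 47.4% of genes were called, 23.3% higher. *Ciita* counted 3138, 4164 and 4012, above all PBS libraries (log2 fold change 1.25, SE 0.25; edgeR adjusted p = 0.00133). *H2-Oa* at 56.9, 45.5 and 36.1 rose by 2.59 (SE 0.49; edgeR adjusted p = 0.000814) and was past the cut-off of 2, as were 8.43% of all genes. *H2-DMb1* at 7420, 5888 and 6269 rose by 1.12 (SE 0.21; edgeR adjusted p = 0.000165), and *H2-Aa* at 49229, 42982 and 47626 by 0.62 (SE 0.08; edgeR adjusted p = 3.17e-05). *H2-DMa*, at 3961, 3332 and 3595, rose by 0.33 (SE 0.14; edgeR adjusted p = 0.0303), a call lost on leaving out PBS replicate 1 or 2 or dsHMGB1 replicate 1 or 3 (edgeR adjusted p up to 0.102). With protein-coding genes only *H2-DMa* was not called either (0.31, edgeR adjusted p = 0.05 after rounding). *Cd74*, at 231785, 191040 and 207369, *H2-Ab1*, at 62342, 51085 and 56411, and *H2-Eb1*, at 31795, 26459 and 30262, were not called. They were called when PBS replicate 3 was left out, and 9 genes were higher, of 58.8% called. They were also called with the length offset, when 8 genes were higher, of 54.1%.

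Between frHMGB1 and PBS no gene of the 10 passed the test with all libraries and no offset. edgeR called 0 of the 10, with 0 at an unadjusted p under 0.05, and DESeq2's Wald test called 0. Of all genes, edgeR called 7%, 1.31% higher, and the Wald test called 502 higher and 1258 lower of 16850. With protein-coding genes only, edgeR called 41 higher and 29 lower of 13025, and no gene of the 10. In the main fit *Cd74* came closest, at an unadjusted edgeR p of 0.0501. Its DESeq2 log2 fold change of -0.50 had a 95% interval, not adjusted, of -0.99 to -0.00303. *Ciita* counted 1983, 1803 and 1912, *Cd74* 133941, 121883 and 122029, and *H2-Aa* 34648, 32631 and 32825. *H2-Ab1* counted 36213, 35731 and 35352, *H2-Eb1* 21280, 19233 and 19850 and *H2-DMb1* 3337, 3196 and 3201. The frHMGB1 libraries of *H2-Ab1*, *H2-Eb1* and *H2-DMb1* were each above PBS replicates 1 and 2 and below PBS replicate 3, those of *H2-Aa* were above all 3 PBS libraries, and those of *Ciita* and *Cd74* overlapped PBS replicates 1 and 2. Without PBS replicate 3, 3 genes were called higher, of 17.5% called among all genes: *H2-DMb1* by 0.46 (edgeR adjusted p = 0.000746), *H2-Ab1* by 0.29 (adjusted p = 0.00827) and *H2-DMa* by 0.27 (adjusted p = 0.0201). *H2-Ab1* thereby changed sign, from -0.14 in edgeR with all libraries. With the length offset 2 were called, of 8% among all genes: *Cd74* lower (-0.31, edgeR adjusted p = 0.0155), and *H2-DMb1* higher (0.26, adjusted p = 0.0157).

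**Figure D4:**
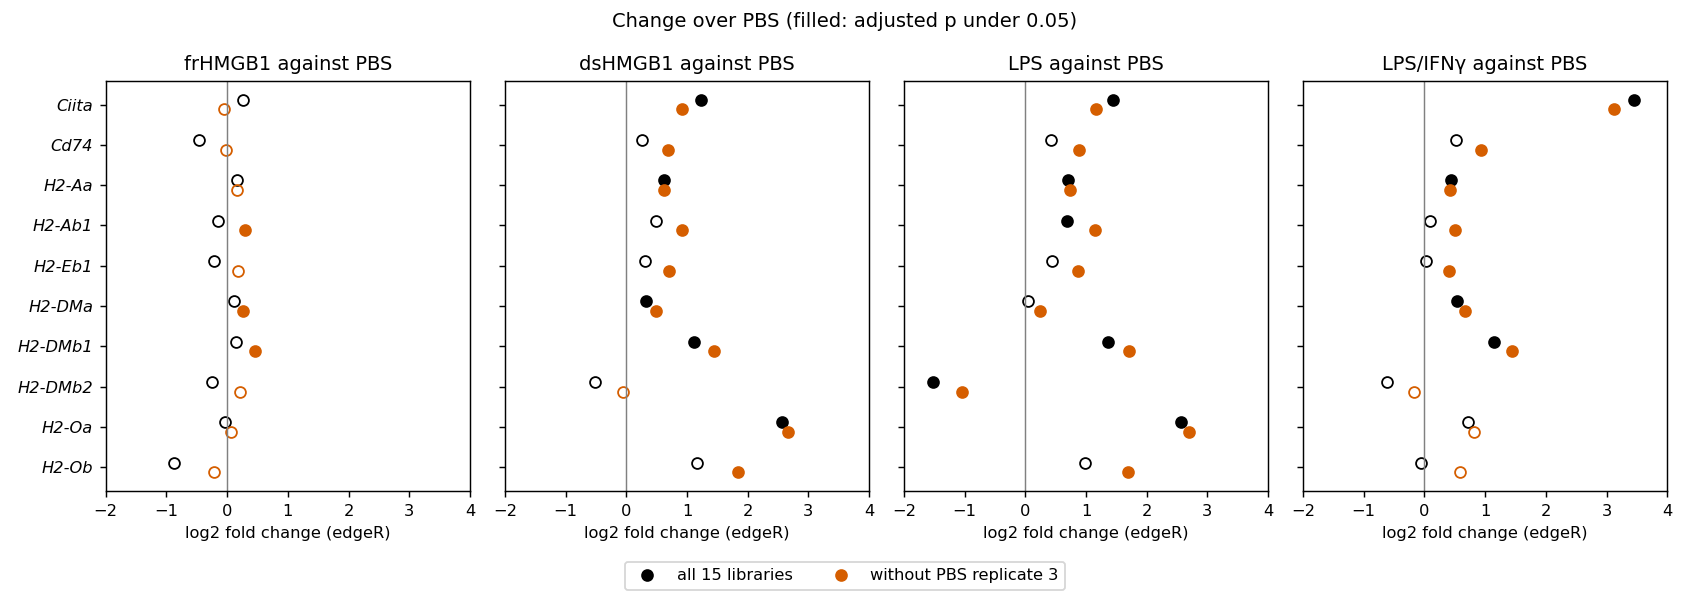
Log2 fold change of the 10 genes over PBS in edgeR for frHMGB1, dsHMGB1, LPS and LPS/IFNγ, with all 15 libraries (black) and without PBS replicate 3 (orange); filled points have an adjusted p under 0.05. Without that library *Ciita* moves left and *Cd74*, *H2-Ab1* and *H2-Eb1* move right in each panel, and all 10 points are filled for LPS.

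No difference between dsHMGB1 and LPS passed the test on these genes with all libraries, in the fit without an offset, and 6 of them did not overlap between the groups, as was the case for 52.9% of all genes tested. edgeR called 0 of the 10, as did DESeq2, with 2 at an unadjusted p under 0.05 in edgeR (*H2-DMa* and *H2-DMb2*), where 26.4% of all genes were called. *Ciita* differed by -0.27 (95% interval -0.76 to 0.23) and *H2-Ab1* by -0.25 (95% interval -0.74 to 0.24), so differences of that size are not excluded by the test. Leaving out PBS replicate 3 gave 7 calls, of 48.8%: *Ciita*, *Cd74*, *H2-Ab1*, *H2-Eb1* and *H2-DMb1* lower in dsHMGB1, by 0.17 to 0.26 on the log2 scale, and *H2-DMa* and *H2-DMb2* higher, by 0.25 and 0.98. With the length offset and all libraries 3 were called, of 36.5%: *Ciita* lower (-0.23, edgeR adjusted p = 0.0441), and *H2-DMa* (0.32, adjusted p = 0.00175) and *H2-DMb2* (1.10, adjusted p = 0.0318) higher.

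Between dsHMGB1 and LPS/IFNγ 2 of the 10 were called, of 33.2% among all genes. *Ciita* was 4.75-fold lower in dsHMGB1 (log2 fold change -2.25, SE 0.25; edgeR adjusted p = 1.82e-05), and *H2-Oa* was 3.54-fold higher (1.82, SE 0.48; edgeR adjusted p = 0.00898). The chain genes had higher means in dsHMGB1, *H2-Ab1* by 0.38 and *H2-Eb1* by 0.26, neither called (edgeR adjusted p = 0.183 and 0.335). Without PBS replicate 3, 5 genes were called higher and 3 lower, of 53.3%, and the 3 chain genes were among the higher ones. The length offset gave 5 calls, of 41%: *H2-Ab1* and *H2-Oa* higher in dsHMGB1 and *Ciita*, *Cd74* and *H2-DMa* lower.

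Per kilobase of the longest coding transcript, mean normalized counts in LPS were 173187 for *Cd74*, 55591 for *H2-Ab1*, 45444 for *H2-Aa* and 20174 for *H2-Eb1*. They were 5676 for *H2-DMb1*, 1548 for *H2-DMa* and 756 for *Ciita*, and 44.1, 17.8 and 9.25 for *H2-Oa*, *H2-DMb2* and *H2-Ob*. On this scale *Ciita* reached 2981 in LPS/IFNγ and so passed *H2-DMa* at 2112, which it did not in LPS. The order of the conditions was not the same for all genes. *Ciita* went from LPS/IFNγ through LPS and dsHMGB1 to frHMGB1 and PBS, with no overlap between neighbours except the last pair. *H2-Aa*, *H2-Ab1* and *H2-Eb1* went from LPS through dsHMGB1 to LPS/IFNγ, where LPS and dsHMGB1 overlapped for *H2-Aa* and *H2-Eb1* and dsHMGB1 and LPS/IFNγ did not overlap for any of the 3. None of the 3 was called between dsHMGB1 and LPS/IFNγ with all libraries (edgeR adjusted p = 0.105, 0.183 and 0.335). *H2-DMa* had LPS/IFNγ first and dsHMGB1 second, without overlap, and *H2-DMb1* had LPS first. With 3 libraries a side many genes do not overlap: 60.5% of all genes between LPS and LPS/IFNγ and 52.9% between dsHMGB1 and LPS. For the other pairs of conditions this share is not reported here.

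The factors that hold CIITA on the promoters were also followed. Of the 7 genes of RFX, CREB and NF-Y listed, all 7 were tested, and in LPS/IFNγ against LPS 1 was called higher and 0 lower, where 25.7% of all genes were called, with a median of 0.179 on the log2 scale beside 0.00247 over all genes. The gene called was *Creb1* (0.49, SE 0.18; edgeR adjusted p = 0.0439), which encodes CREB. When PBS replicate 3 was left out 3 were higher (*Creb1*, *Nfya* and *Nfyb*) and 2 lower (*Rfx5* and *Nfyc*), of 49.4% called among all genes. Against PBS, LPS raised 4 of the 7 and lowered 2, where 62.9% of all genes were called: *Rfx5*, the RFX subunit that contacts DNA, rose by 1.88 (SE 0.36; edgeR adjusted p = 0.000797), while its partners *Rfxap* and *Rfxank* fell by 0.83 (SE 0.23; adjusted p = 0.00141) and 1.59 (SE 0.21; adjusted p = 6.83e-06). The subunits of the RFX complex thus moved in opposite directions at the level of mRNA. The 6 calls were the same without PBS replicate 3, when 71.2% of all genes were called.

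Most of the genes listed for the IFNγ signal to *Ciita*, its inhibitor *Socs1* included, were already higher in LPS than in PBS. Of 8 listed, 6 were called higher in LPS than in PBS and 0 lower, where 26.7% of all genes were called higher, with a median of 2.65 beside -0.209 over all genes. *Ifngr2* and *Usf1* were the ones not called. All 8 were called higher once PBS replicate 3 was left out, when 71.2% of all genes were called in either direction. *Jak2* went from a mean of 2073 ± 556 (SD, n = 3) in PBS to 65486 ± 812 in LPS, and *Irf1*, which acts on the *Ciita* promoter, from 4681 ± 1015 to 116463 ± 1673. In LPS/IFNγ *Irf1* was at 140651 ± 2410, a log2 fold change of 0.27 over LPS (edgeR adjusted p = 0.0516), and *Jak2* at 68414 ± 850, neither called. Between LPS/IFNγ and LPS 1 of the 8 was higher and 3 were lower, where 25.7% of all genes were called. The higher one was *Socs1*, the feedback inhibitor of JAK kinases (0.81, SE 0.19; edgeR adjusted p = 0.0062), and the lower ones were the receptor genes *Ifngr1* (-0.82, SE 0.10; adjusted p = 0.000241) and *Ifngr2* (-0.52, SE 0.06; adjusted p = 0.000262) and *Usf1* (-1.02, SE 0.28; adjusted p = 0.00982). In the fit lacking PBS replicate 3 *Jak1* and *Irf1* were called higher as well, so that 3 were higher and 3 lower, of 49.4% called among all genes.

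Of 9 genes for trimming the invariant chain and for class II turnover, 1 was higher and 2 were lower in LPS/IFNγ than in LPS, a share near the 25.7% of all genes called, with a median of -0.0823. *Marchf1*, a ubiquitin ligase that marks surface class II for degradation, fell by 0.98 (SE 0.23; edgeR adjusted p = 0.00867), from 1765 ± 90.4 in LPS to 896 ± 47.5 (SD, n = 3). *Cd83*, whose product opposes that ligase, rose by 0.78 (SE 0.06; edgeR adjusted p = 3.89e-06), from 69820 ± 1202 to 120117 ± 2406. *Ctsl*, a cathepsin, fell by 0.63 (SE 0.15; edgeR adjusted p = 0.00226), while *Ctss*, the protease that completes the trimming in macrophages, was not called (-0.10, adjusted p = 0.747). *Ctsd*, another cathepsin, was called lower too without PBS replicate 3. Against PBS, LPS raised 2 of the 9 and lowered 3, where 62.9% of all genes were called: *Cd83* rose by 4.91 (adjusted p = 9.07e-14) and *Ifi30*, a thiol reductase of endosomes, fell by 1.37 (adjusted p = 0.000258). Leaving out PBS replicate 3 gave 3 higher and 4 lower, of 71.2% called.

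The class I genes, whose transactivator *Nlrc5* is a relative of *Ciita*, are set beside them here. All 9 listed were called higher in LPS than in PBS, with a median of 1.81, where 26.7% of all genes tested were. Of the 10 class II genes 5 were called higher with all libraries and 9 without PBS replicate 3, when 71.2% of all genes were called in either direction. The difference between the lists was not tested. *Nlrc5* rose by 4.93 (SE 0.20; edgeR adjusted p = 6.28e-10) and then was not called in LPS/IFNγ (-0.23 against LPS, 95% interval -0.61 to 0.15, adjusted p = 0.54), while *Ciita* rose in both steps. Between LPS/IFNγ and LPS 1 of the 9 was called, of 25.7% among all genes, *Tap1*, a subunit of the peptide transporter (0.26, SE 0.10; edgeR adjusted p = 0.0252), and the median was -0.227. *Psmb8*, an immunoproteasome gene, had a mean of 19883 ± 489 in LPS and 9560 ± 432 in LPS/IFNγ (-1.06, SE 0.39; edgeR adjusted p = 0.0536), which was not called. When PBS replicate 3 was left out 1 was higher and 5 were lower, of 49.4% called among all genes: *Tap1* again, and *Nlrc5*, *H2-K1*, *Tap2*, *Psmb8* and *Psmb9*.

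*Tap1*, *Tap2*, *Psmb8* and *Psmb9* lie among the class II genes of chromosome 17. Between *H2-Oa* and *H2-Eb1*, 12 other annotated genes were found, of which 8 were tested. *Tap1* alone was called between LPS/IFNγ and LPS, where 25.7% of all genes were called. Without PBS replicate 3, when 49.4% were called, *Tap2*, *Psmb8* and *Psmb9* were added, all lower. Not all neighbours shared a direction: *H2-DMa*, called higher, lies 27.2 kb from the start of *H2-Oa*, called lower, with *Brd2* between them at -0.01 (edgeR adjusted p = 0.937). From *Psmb8* to *H2-Eb1* every gene tested lay below 0, with *H2-Aa* alone called with all libraries. The class II genes *H2-Ea* and *H2-Eb2* did not pass the filter, with 5 and 39 counts in all libraries. C57BL/6 mice are known to make no I-E α chain, which leaves the *H2-Eb1* chain without its partner.

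**Figure D5:**
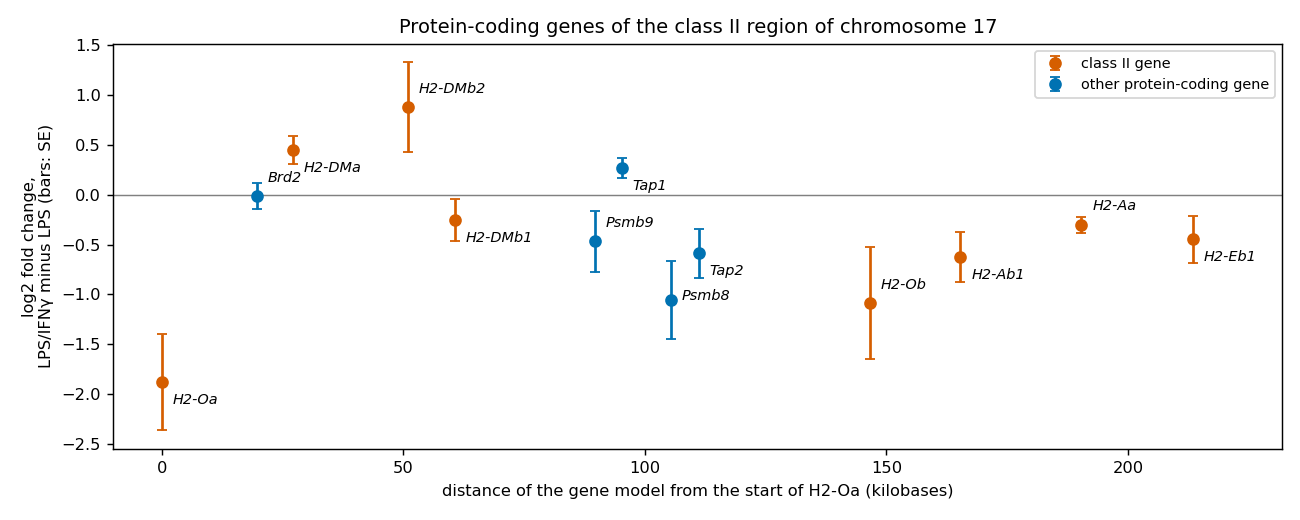
Log2 fold change (DESeq2, bars are SE), LPS/IFNγ minus LPS, of the protein-coding genes tested in the class II region against the distance of each gene model from the start of *H2-Oa* in kilobases. Class II genes (orange) and other genes (blue) lie on both sides of 0 up to *Tap1*, and all lie below 0 from *Psmb8* to *H2-Eb1*.

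Across the 15 libraries the chain genes and *Cd74* resembled each other more than they resembled *Ciita*. Pearson's r of log2 normalized counts was 0.987 between *H2-Ab1* and *H2-Eb1* and 0.811 between *H2-Ab1* and *H2-Aa*, but 0.142 between *Ciita* and *H2-Ab1* and 0.542 between *Ciita* and *Cd74*. The 5 genes most like *Ciita* among 10915 with a mean of at least 100 were *Snap29* (r = 0.996), *Chst11* (0.996), *4930523C07Rik* (0.996), *Rngtt* (0.994) and *Arih1* (0.993). The closest to *H2-Ab1* were *Selenow* (0.985), *Psma5* (0.979), *Ube2m* (0.977), *Psmb6* (0.975) and *2610001J05Rik* (0.974). The libraries share their conditions and their length trends, so these values are a description of the 15 libraries without a test.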

How the data were processed

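RNA of 15 BMDM libraries, 3 per condition, had been sequenced as stranded mRNA and, per the labels, processed with CASAVA, STAR and DESeq2 on GRCm38. The authors deposited raw counts for 51763 Ensembl genes, not normalized. Which program and annotation they counted with is not given in the sources used here. The table has 0 columns without a sample. Gene names, positions and transcript lengths came from GENCODE M21 (51661 genes found, 102 not).

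Genes were tested with edgeR 4.0.16 (quasi-likelihood F test, TMM, filterByExpr with a minimum count of 10, 16919 genes, all 15 libraries in one fit) in R 4.3.3, with Benjamini-Hochberg adjustment over all genes tested and calls at an adjusted p under 0.05. Normalized counts, unshrunken log2 fold changes and SEs were from DESeq2 1.42.0, and values of a named alternative were from edgeR. The scripts were tested on simulated data. Single genes of the lists that the text does not name are not reported here. The 10 genes and all lists (RFX, CREB and NF-Y genes; IFNγ signal; invariant chain and turnover; other class II genes; class I; region of chromosome 17; cell markers) were chosen with earlier results of these data known, and the genes named are those 10, genes of the lists and the 5 genes most correlated with *Ciita* and with *H2-Ab1*. Tried beside this were the Wald test of DESeq2, RLE scaling, other filters (none, 1 CPM, protein-coding genes only), a test against a fold of 2, a block on the replicate number, separate fits of each pair, and fits lacking one library. The fits without PBS replicate 3 in comparisons that do not involve PBS, all counts of the lists without it, and the length offset (a loess curve of log2 CPM deviations on mRNA length) were chosen after the values were seen. Depth is 40934540 to 80925478 counts a library, and intervals are of 95%.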

Additional observations from a re-analysis of the deposited data

How the results depend on the processing

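The counts of the 10 genes called are given in the order LPS/IFNγ against LPS, LPS, LPS/IFNγ, dsHMGB1 and frHMGB1 each against PBS, dsHMGB1 against LPS and dsHMGB1 against LPS/IFNγ. With all libraries they were 4, 6, 4, 5, 0, 0 and 2. Without PBS replicate 3 they were 7, 10, 7, 9, 3, 7 and 8, the first and the last pair being alternatives chosen after seeing the data, as was the mRNA-length offset, which gave 7, 8, 7, 8, 2, 3 and 5. Fitting each pair of conditions alone gave 8, 4, 4, 4, 0, 1 and 8, with *H2-Ab1* and *H2-DMb2* lost in LPS against PBS and *H2-DMa* in dsHMGB1 against PBS. The share of all genes called shifted too: fitted alone it was 61.1% for LPS/IFNγ against LPS, beside 25.7% in the main fit. For dsHMGB1 against LPS/IFNγ 4296 genes were higher and 4284 lower of 15494, beside 2797 and 2824 of 16919 in the main fit. Fitted alone, LPS against PBS had 3712 higher and 3685 lower of 15049, and LPS/IFNγ against PBS 4157 and 3555 of 15863. For dsHMGB1 against PBS it was 2493 and 2254 of 15883, and for frHMGB1 against PBS 7 and 182 of 14887. For dsHMGB1 against LPS it was 3761 and 3224 of 14872. A test against a fold of 2 gave 1, 3, 1 and 1 in the first 4 comparisons and 1 in the last, and a filter of 1 CPM gave 3 for dsHMGB1 against PBS and 1 for dsHMGB1 against LPS/IFNγ. For LPS/IFNγ against LPS the test against a fold of 2 called 917 genes higher and 176 lower of 16919. Of the same 16919 it called 2309 and 2920 for LPS against PBS and 2656 and 2311 for LPS/IFNγ against PBS. For dsHMGB1 it called 1693 and 964 against PBS, and 419 and 723 against LPS/IFNγ. The 1 CPM filter called 3393 higher and 3963 lower of 12797 for dsHMGB1 against PBS, and 2634 and 2715 for dsHMGB1 against LPS/IFNγ. With one library left out at a time the counts ranged from 3 to 7, 5 to 10, 4 to 7, 4 to 9, 0 to 3, 0 to 7 and 2 to 8, and the highest of each was without PBS replicate 3. That fit also called a larger share of all genes in each comparison than the fit with all libraries. At a log2 fold change of 2 the counts were 0, 1, 1, 1, 0, 0 and 1. A cut-off of 1 gave 3, 5, 2 and 4 in the first 4 comparisons and 3 in the last, with no share of all genes taken at that cut-off. At the cut-off of 2, leaving out a library moved the first from 0 to 1 and the last to 2. The causes were not tested. *H2-Ab1* in frHMGB1 against PBS reversed, from -0.14 to 0.29 in edgeR without PBS replicate 3; leaving out any other library gave -0.33 to -0.13. Of the values of single genes under an alternative, 965 kept their side of the threshold, 30 lost a call, 68 gained one and 1 reversed with a call. A change of sign where neither value was called is counted among the 965. The 3 genes with under 100 raw counts in most libraries, *H2-DMb2*, *H2-Oa* and *H2-Ob*, are limited by depth.

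The replicate numbers did not pair the samples: same-numbered libraries of different conditions had deviations that correlated between -0.705 and 0.683 (median -0.00881, 30 pairs). A replicate block gave 4, 7, 5, 6, 0, 0 and 2 called genes in the same order. For LPS/IFNγ against LPS it called 2598 of all 16919 genes higher and 1450 lower. Against PBS it called 4487 and 5849 for LPS, 4883 and 5013 for LPS/IFNγ, 3856 and 3755 for dsHMGB1 and 176 and 839 for frHMGB1. For dsHMGB1 it called 2490 and 1669 against LPS, and 2651 and 2720 against LPS/IFNγ.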
